A study of Mus musculus with 22 samples.

Results

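The depot dependence of the effect of Gipr-/- bone marrow on white fat was measured per gene as a difference of differences: the Gipr-/- minus wild-type (WT) marrow difference in inguinal subcutaneous fat (ingWAT), minus the same difference in epididymal fat (epiWAT). The comparison rests on 15 of the series' 22 Affymetrix arrays, and 14502 of 19337 genes were tested. The groups, by depot and marrow, were ingWAT with Gipr-/- marrow (n = 3), ingWAT with WT marrow (n = 4), epiWAT with Gipr-/- marrow (n = 4) and epiWAT with WT marrow (n = 4). All 4 groups were male C57BL/6J chimeras with WT recipients, which had 6 weeks for the marrow to take and then 14 weeks on a high-fat diet (60% of calories from fat). In these mice the receptor was missing from cells that grew from the donor marrow, not from the recipient's adipocytes. The other 7 arrays, with Gipr-/-S100a9-/- marrow, entered the fit only for the estimate of the spread. The labels give neither the age of the mice nor the share of recipient blood cells replaced. They also do not say whether each array is a separate mouse or whether ingWAT and epiWAT came from the same mice, so the spread behind every p-value may be technical in part.

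The GIP receptor binds glucose-dependent insulinotropic polypeptide, an incretin hormone released by the gut after a meal. It acts on beta cells and adipocytes, and myeloid cells carry it too. In obesity, marrow-derived monocytes enter fat and become macrophages there, and epididymal fat is known to gather more of them than inguinal fat, which can also form beige adipocytes. S100a8 and S100a9 encode the alarmins of neutrophils and monocytes that the series pairs with Gipr.

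Values are on a log2 scale, so that a difference of 1 is a doubling. In all 15 arrays the adipocyte markers Adipoq (adiponectin) and Fabp4 (fatty acid binding protein) were among the brightest genes, at 18.64 or above and at 19.55 or above. RNA of other tissues was unequal between arrays. A list score below is the mean over the genes of a list of the value minus the gene's mean, in log2 units. The skeletal muscle score was -0.74, 0.56 and 1.86 in the ingWAT Gipr-/- arrays, against 4.48, 6.41, 7.09 and -1.55 in the ingWAT WT arrays, and it was -1.46 or lower in every epiWAT array. Thus ingWAT WT arrays 1 to 3 stood apart from WT array 4 and from all Gipr-/- arrays. In epiWAT the testis germ cell score was 7.04 in Gipr-/- array 1 and 3.13 in WT array 2, against 1.48 or lower in the other 6 arrays. The epididymis score reached 5.55 in WT array 2. Sample codes in the labels fall into separate runs of numbers, and in ingWAT the later run holds Gipr-/- arrays 1 and 2 and WT array 4; what the codes stand for is not given. Values with the muscle score or the code run as a covariate, within each code run, or without these arrays stand beside the main genes and lists below. An ingWAT difference within a code run rests on 1 WT array in the later run and on 1 Gipr-/- array in the earlier one. In bulk tissue, fewer cells of a type and less RNA per cell cannot be told apart.

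**Figure D1:**
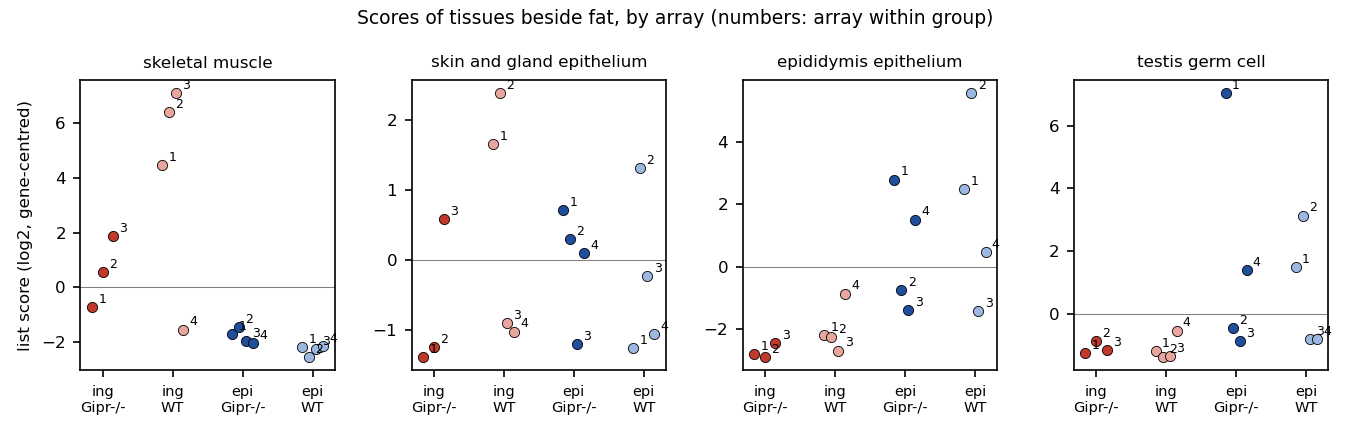
List scores of 4 tissues beside fat on each array (vertical axis: log2, centred per gene), by depot and marrow. Each point is 1 array, numbered within its group. Skeletal muscle is high in ingWAT WT arrays 1 to 3, and testis germ cell genes in epiWAT Gipr-/- array 1.

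Gipr itself checks little here, since whole fat holds mostly recipient cells that carry the gene. It lay at 4.66, 5.66 and 4.99 in ingWAT with Gipr-/- marrow, against 5.31, 4.36, 5.51 and 4.86 with WT marrow. In epiWAT it lay at 5.21, 5.65, 5.51 and 5.14 with Gipr-/- marrow, against 5.07, 4.55, 4.81 and 4.71 with WT marrow. These are low values on this array. The ingWAT groups overlapped, the epiWAT Gipr-/- arrays lay above the WT ones, and the difference of differences was -0.50 (SE 0.567; limma adjusted p = 0.889). S100a8 had a difference of 0.3 in ingWAT and 1.35 in epiWAT, and S100a9 one of 0.51 in ingWAT and -0.19 in epiWAT; neither difference of differences passed the threshold (limma adjusted p = 0.834 for S100a8 and 0.83 for S100a9). That of S100a9 was 0.70, and 1.15 with the muscle covariate.

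No gene passed the adjusted threshold of 0.05 for the difference of differences (0 of 14502, 0%; lowest limma adjusted p 0.053). At an unadjusted p under 0.05, there were 1153 genes (7.95%). Of these, 748 had a difference of differences above 0 (5.16%) and 405 one below 0 (2.79%). A value above 0 can come from a rise in ingWAT or from a fall in epiWAT. With limma's array weights 28 genes passed, 22 of them above 0 and 6 below. In ingWAT alone 97 genes passed (0.669%), of which 78 rose and 19 fell with Gipr-/- marrow; 2003 had an unadjusted p under 0.05 (13.8%). After quantile normalization that split was 31 higher and 21 lower. In epiWAT alone 0 genes passed by limma (0%; lowest adjusted p 0.117), while 1164 had an unadjusted p under 0.05 (8.03%) and 93 passed with array weights. The median SE of a gene was 0.475 for the difference of differences, 0.349 for the ingWAT difference and 0.323 for the epiWAT difference.

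The 97 genes were chosen for a large ingWAT difference, so their sizes are a description: the median was 1.44 in ingWAT and 0.262 in epiWAT, where the median size over all genes tested was 0.255. In epiWAT 66 of the 97 were under 0.5 in size, against 77.7% of all genes, and 66 had the same sign as in ingWAT and 31 the opposite sign, against 55.9% of all genes with the same sign. The count of 97 moved with covariates and single arrays. It was 2 with the muscle score as a covariate (1 of the 97 among them), 1 with the code run as a covariate, and between 1 and 252 when 1 array was left out. Without ingWAT Gipr-/- array 1, 2 or 3 it was 5, 1 or 66, and without ingWAT WT array 1, 2, 3 or 4 it was 31, 38, 21 or 252. Leaving out epiWAT arrays, which share the estimate of the spread, gave 111, 64, 96 or 64 without Gipr-/- array 1, 2, 3 or 4. Without epiWAT WT array 1, 2, 3 or 4 the count was 75, 81, 62 or 61. Across the genes tested, the ingWAT and epiWAT differences correlated with r = 0.134 and rho = 0.173, as a description over genes, which are not independent. Among genes with a size of at least 1 in both depots, 108 had the same sign and 34 opposite signs.

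**Figure D2:**
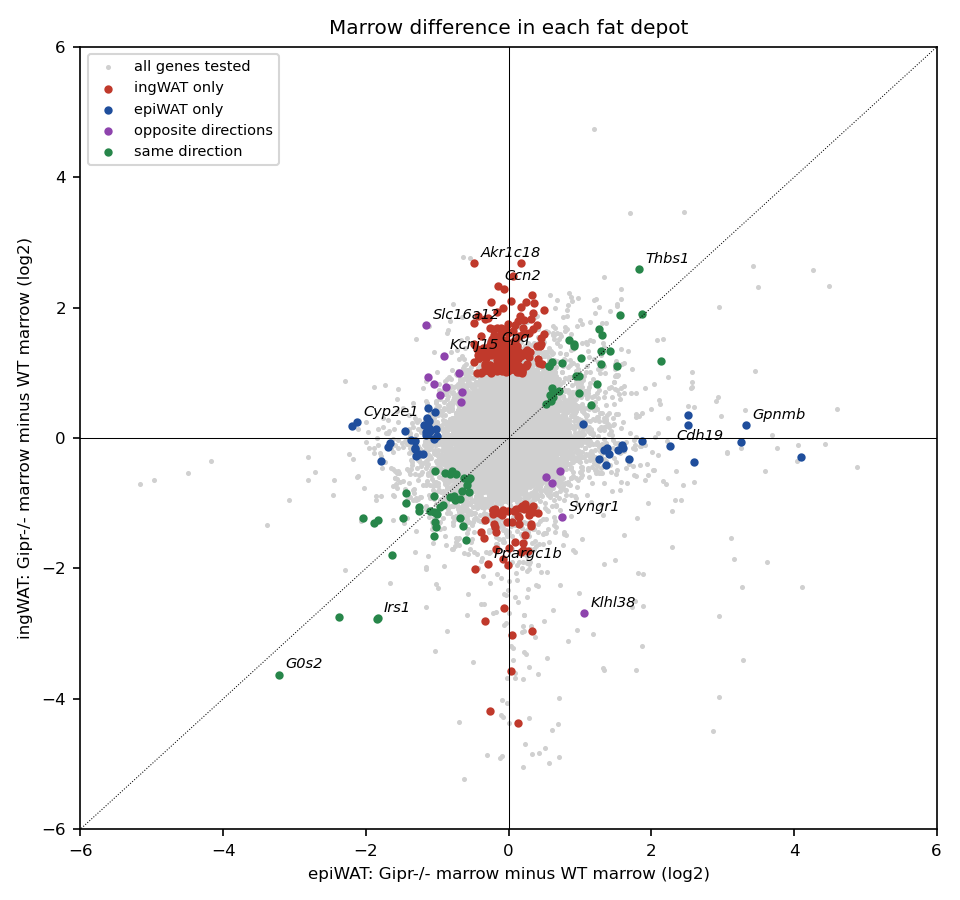
Difference between Gipr-/- and WT marrow (log2) in ingWAT (vertical axis) against epiWAT (horizontal axis), 1 point per gene tested; 3 genes lie beyond the axis limits. Coloured points are the direction classes, the dotted line marks equal differences, and the ingWAT-only genes (235) outnumber the epiWAT-only ones (44). The ingWAT Gipr-/- group had 1 array fewer, so arrays without overlap were easier to reach in ingWAT.

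Genes were sorted into direction classes by their values, so class membership carries no test of its own. A gene counted as moving in one depot only where its difference there was at least 1 with no overlap of the arrays, while the other depot differed by under 0.5 with overlapping arrays and the interaction had an unadjusted p under 0.05. It counted as opposite where both depots differed by at least 0.5 with no overlap and unlike signs. There were 235 ingWAT-only genes (1.62%), 44 epiWAT-only genes (0.303%), 14 opposite genes (0.0965%) and 70 in the same direction (0.483%). There were 183 ingWAT-only genes higher with Gipr-/- marrow (1.26% of genes tested) and 52 lower (0.359%). There were 18 epiWAT-only genes higher (0.124%) and 26 lower (0.179%). Opposite directions were found for 9 genes higher in ingWAT (0.0621%) and 5 lower in ingWAT (0.0345%), and the same direction in both depots for 30 higher (0.207%) and 40 lower (0.276%). Arrays of Gipr-/- and WT marrow did not overlap for 15.4% of all genes in ingWAT (10.3% higher and 5.11% lower) and for 5.01% in epiWAT (2.27% higher and 2.74% lower), where the Gipr-/- group had 1 array more. Groups with fewer arrays separate more easily by chance, so the class rule favours ingWAT-only over epiWAT-only genes. A size of at least 1 was reached by 7.5% of genes in ingWAT and 5.04% in epiWAT. The ingWAT-only class as a whole held 221 genes with the muscle covariate and 200 with the code run as a covariate, against 235 without either. In these 2 counts the overlap of arrays was still judged on values not corrected for the covariate. Only the sizes and the interaction p could change, so part of the likeness of the counts is built in. It held 397 without ingWAT WT array 4. The epiWAT-only class held 25 without epiWAT Gipr-/- array 1, 85 without Gipr-/- array 3, 80 without Gipr-/- array 4 and 72 without WT array 2. With 1 array left out the opposite class held between 12 (without epiWAT Gipr-/- array 1) and 34 genes (without epiWAT WT array 2), and the same-direction class between 69 (without ingWAT Gipr-/- array 2) and 157 (without epiWAT Gipr-/- array 1).

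The opposite class was led by Slc16a12, a member of the monocarboxylate transporter family. It read 10.40, 10.97 and 10.39 in ingWAT with Gipr-/- marrow, against 8.70, 9.23, 8.19 and 9.30 with WT marrow. In epiWAT it read 8.92, 9.15, 8.86 and 9.67 with Gipr-/- marrow, against 10.30, 11.06, 10.08 and 9.75 with WT marrow. The groups did not overlap in either depot: Gipr-/- marrow went with a high level in ingWAT and a low one in epiWAT. Slc16a12 rose by 1.73 in ingWAT (SE 0.348; limma adjusted p = 0.033) and had a difference of -1.15 in epiWAT (SE 0.323; limma adjusted p = 0.287). The difference of differences was 2.88 (95% interval 1.89 to 3.87; limma adjusted p = 0.053), and it was 2.78 with the muscle score and 2.70 with the code run as a covariate. The ingWAT difference was 1.39 within the later code run (1 WT array) and 1.69 within the earlier one (1 Gipr-/- array). Slc16a12 and Cpq were the only genes called with the lowest 50% of genes left out (limma adjusted p = 0.0497 for both) or without epiWAT Gipr-/- array 4 (limma adjusted p = 0.0371 for both).

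For the named genes the marrow labels were also exchanged within each depot in all 2450 ways, an exact two-sided permutation test whose smallest possible p is 0.000408. It tests for a marrow effect in either depot, not for the interaction alone, and genes were picked here for a small p. Slc16a12 reached that smallest value, as did Mpdu1, Mmp28, Ubxn8 and Cct8. A gene without overlap in either depot and with opposite signs lies at one end of these exchanges by construction. For such genes, the opposite class among them, the permutation p is a description and no further support. Among the 20 genes with the smallest interaction p, 10 in each direction, exact permutation p ran between 0.000408 and 0.0824, and 19 were under 0.05.

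Kcnj15, an inwardly rectifying potassium channel, had the same pair of directions. It read 5.85, 6.96 and 5.42 in ingWAT with Gipr-/- marrow, against 4.61, 4.73, 5.36 and 4.56 with WT marrow. The epiWAT values were 6.87, 7.48, 7.05 and 7.52 with Gipr-/- marrow, against 8.74, 7.71, 8.40 and 7.72 with WT marrow. Neither depot's groups overlapped, and the differences were 1.26 in ingWAT and -0.91 in epiWAT (difference of differences 2.18, SE 0.485; limma adjusted p = 0.273). For Kcnj15 the ingWAT difference was 1.85 within the later code run and 0.53 within the earlier one, and the difference of differences was 2.29 with the muscle covariate and 2.06 with the code run. Mmp28, a secreted matrix metalloproteinase, differed by 0.94 in ingWAT and -1.13 in epiWAT. Ubxn8, a membrane protein of the endoplasmic reticulum, was also higher in ingWAT and lower in epiWAT (-0.70), without overlap. Its ingWAT difference was 1.54 within the later code run and 0.25 within the earlier one. The other members higher in ingWAT were Zfp764, Syt12, Cers2, Slc18b1 and Zfp648, with ingWAT differences between 0.56 and 0.82 and epiWAT differences between -1.04 and -0.66.

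Syngr1, a synaptogyrin of secretory vesicles, led the genes that ran the other way. It read 5.90, 6.23 and 5.62 in ingWAT with Gipr-/- marrow, against 6.86, 7.42, 7.63 and 6.6 with WT marrow. In epiWAT the arrays read 6.27, 6.80, 6.77 and 6.62 with Gipr-/- marrow, against 6.26, 5.67, 6.17 and 5.33 with WT marrow. The groups touched without overlapping in epiWAT, and the difference of differences was -1.97 (SE 0.453; limma adjusted p = 0.292; -1.53 with the muscle covariate). Within the later and the earlier code run the ingWAT difference of Syngr1 was -0.53 and -1.69. Cct8, a subunit of the cytosolic chaperonin, differed by -0.59 in ingWAT and 0.52 in epiWAT, and Epgn, an epidermal growth factor family ligand, by -0.51 and 0.73. Klhl38 and Srpk3, which are best known from striated muscle, belong to this class as well. Klhl38 read 4.55, 4.35 and 4.78 in ingWAT with Gipr-/- marrow, against 6.57, 7.02, 10.56 and 4.83 with WT marrow. Its highest values fell on the WT arrays with the highest muscle scores, and its difference of differences was -3.75 (SE 1.06) as measured and -2.11 with the muscle covariate. In epiWAT Klhl38 read 5.65, 5.68, 5.27 and 5.24 with Gipr-/- marrow, against 3.93, 4.20, 4.58 and 4.89 with WT marrow. Srpk3 read 4.59, 4.54, 4.62 and 5.08 there, against 4.29, 3.37, 4.29 and 4.44. These epiWAT values are low on this array.

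Gsta3, a glutathione S-transferase that detoxifies electrophiles and lipid peroxidation products, missed the opposite class by an overlap in ingWAT. It read 12.29, 11.94 and 11.03 in ingWAT with Gipr-/- marrow, against 11.32, 10.69, 10.98 and 10.78 with WT marrow. Its epiWAT arrays held 11.28, 10.69, 11.40 and 11.75 with Gipr-/- marrow, against 12.48, 12.81, 13.17 and 13.61 with WT marrow. All 4 epiWAT Gipr-/- arrays lay below all 4 WT arrays, and 1 ingWAT Gipr-/- array lay among the WT arrays. The difference of differences was 2.55 (SE 0.557; limma adjusted p = 0.273), made up of 0.81 in ingWAT and -1.74 in epiWAT. The ingWAT difference was 1.33 within the later code run and 0.03 within the earlier one.

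The promoter sequences of Slc16a12, Gsta3 and Cyp2e1 are shown as examples picked by hand, as were the motifs. Each of these 3 genes was lower in epiWAT with Gipr-/- marrow, without overlap of the arrays, and not lower in ingWAT. Other genes met this as well, among them Kcnj15, Mmp28 and Prr5. The 250 bases before the transcription start are from RefSeq on build GRCm38.p6, read 5′ to 3′ on the gene's own strand (minus for Slc16a12, plus for Gsta3 and Cyp2e1). Capitals mark matches, searched on both strands, to 3 motifs, and none of the matches overlap each other. One is the core of an antioxidant response element, TGACNNNGC. Another is the TATA box, spelled TATAAA in this search. The last is the CCAAT box, found in reverse as ATTGG.
Slc16a12, chr19:34747329-34747578: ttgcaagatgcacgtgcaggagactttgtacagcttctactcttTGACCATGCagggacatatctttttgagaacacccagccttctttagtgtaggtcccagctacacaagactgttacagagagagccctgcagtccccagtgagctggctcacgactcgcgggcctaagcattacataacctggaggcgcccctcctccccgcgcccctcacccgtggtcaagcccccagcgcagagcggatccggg
Gsta3, chr1:21240335-21240584: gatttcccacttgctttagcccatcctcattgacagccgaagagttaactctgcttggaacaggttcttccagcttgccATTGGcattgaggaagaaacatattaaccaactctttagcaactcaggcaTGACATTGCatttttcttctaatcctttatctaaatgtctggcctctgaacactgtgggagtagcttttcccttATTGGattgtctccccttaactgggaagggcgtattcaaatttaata
Cyp2e1, chr7:140763569-140763818: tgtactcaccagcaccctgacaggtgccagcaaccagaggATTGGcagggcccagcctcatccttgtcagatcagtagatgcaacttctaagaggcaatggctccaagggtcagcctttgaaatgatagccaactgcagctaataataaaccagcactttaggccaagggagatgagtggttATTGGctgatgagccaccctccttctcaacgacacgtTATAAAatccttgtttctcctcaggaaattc
Slc16a12 and Gsta3 each held 1 match to TGACNNNGC, which 10.2% of 32851 promoter windows of this length hold. Gsta3 and Cyp2e1 each held 2 CCAAT matches, where 33.8% of windows hold at least 1, and Cyp2e1 1 TATA box (12.4%), which begins 31 bases before the start. A match of letters is a description and not a site of binding.

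The ingWAT-only genes that were higher with Gipr-/- marrow formed the largest class. Cpq, a secreted carboxypeptidase, read 12.70, 12.35 and 12.72 in ingWAT with Gipr-/- marrow, against 11.38, 11.20, 11.24 and 11.05 with WT marrow. Epididymal values were 11.42, 12.01, 12.06 and 12.26 with Gipr-/- marrow, against 12.07, 12.21, 11.98 and 12.23 with WT marrow. The ingWAT groups were far apart for their spread, and the epiWAT groups overlapped. Cpq rose by 1.37 in ingWAT (SE 0.19; limma adjusted p = 0.00874), differed by -0.19 in epiWAT, and had a difference of differences of 1.56 (95% interval 1.02 to 2.10; limma adjusted p = 0.053). Its difference of differences was 1.58 with the muscle covariate and 1.65 with the code run, and the ingWAT difference was 1.48 and 1.44 within the later and the earlier code run.

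Ccn2, the matricellular connective tissue growth factor, read 11.21, 12.02 and 12.33 in ingWAT with Gipr-/- marrow, against 9.46, 9.25, 10.03 and 9.33 with WT marrow. In epiWAT it read 10.56, 10.46, 10.37 and 10.62 with Gipr-/- marrow, against 10.42, 10.15, 10.95 and 11.11 with WT marrow. Every ingWAT Gipr-/- array exceeded every array of the other 3 groups, while the epiWAT groups overlapped. Ccn2 rose by 2.34 in ingWAT (SE 0.405; limma adjusted p = 0.0136) against -0.15 in epiWAT, and its difference of differences was 2.49 (SE 0.552; limma adjusted p = 0.273). Akr1c18, a hydroxysteroid dehydrogenase that inactivates progesterone, read 11.12, 9.48 and 9.78 in ingWAT with Gipr-/- marrow, against 6.77, 8.61, 7.34 and 7.07 with WT marrow. It rose by 2.68 in ingWAT (limma adjusted p = 0.0246) and differed by -0.48 in epiWAT, where all 8 arrays lay between 4.17 and 6.17. Its difference of differences was 3.16 (SE 0.702). With the muscle covariate the difference of differences was 2.82 for Ccn2 and 3.34 for Akr1c18.

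Other members, named for a small interaction p, had varied roles. Psmd5, an assembly chaperone of the proteasome, rose by 1.47 in ingWAT and differed by -0.24 in epiWAT. Wdr74, a ribosome biogenesis factor, rose by 1.38 and differed by -0.11, Zfp207, a zinc finger protein that binds spindle microtubules, rose by 1.10 and differed by -0.19, and Ncbp1, a subunit of the nuclear cap-binding complex, rose by 1.39 and differed by -0.21. In ingWAT these 4 genes passed the limma threshold. A few members that act in the Golgi and the secretory route were picked after their values were seen, so they show no theme of the class. They were Gorasp2 (1.12 in ingWAT and -0.26 in epiWAT), Golph3 (1.32 and 0.23), Sec13 (1.03 and 0.18), Yipf5 (1.02 and 0.15) and Arfgap3 (1.28 and 0.03), and all 5 passed in ingWAT. Mpdu1, which makes mannose-dolichol donors usable for glycosylation, had the same bias without meeting the class rule (0.92 in ingWAT and -0.50 in epiWAT). Napepld, the phospholipase D that makes N-acylethanolamines, rose by 2.06 in ingWAT (limma adjusted p = 0.044) and differed by -0.78 in epiWAT. Its difference of differences was 2.84, and 2.66 with the muscle covariate.

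The largest ingWAT difference among genes that passed, also singled out after its value was seen, was that of Oxtr, the oxytocin receptor. It rose by 4.75 in ingWAT (SE 0.806; limma adjusted p = 0.0136) and differed by 1.20 in epiWAT (SE 0.747; limma adjusted p = 0.741). All 183 ingWAT-only higher genes kept a positive difference of differences with the muscle covariate, with a median of 1.39 against 1.36 without it, and 134 kept an unadjusted p under 0.05. They had been chosen on these same arrays for that sign and a small p, so this is a description and no support. Over all genes tested, 1075 of 14502 had an unadjusted p under 0.05 with that covariate.

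**Figure D3:**
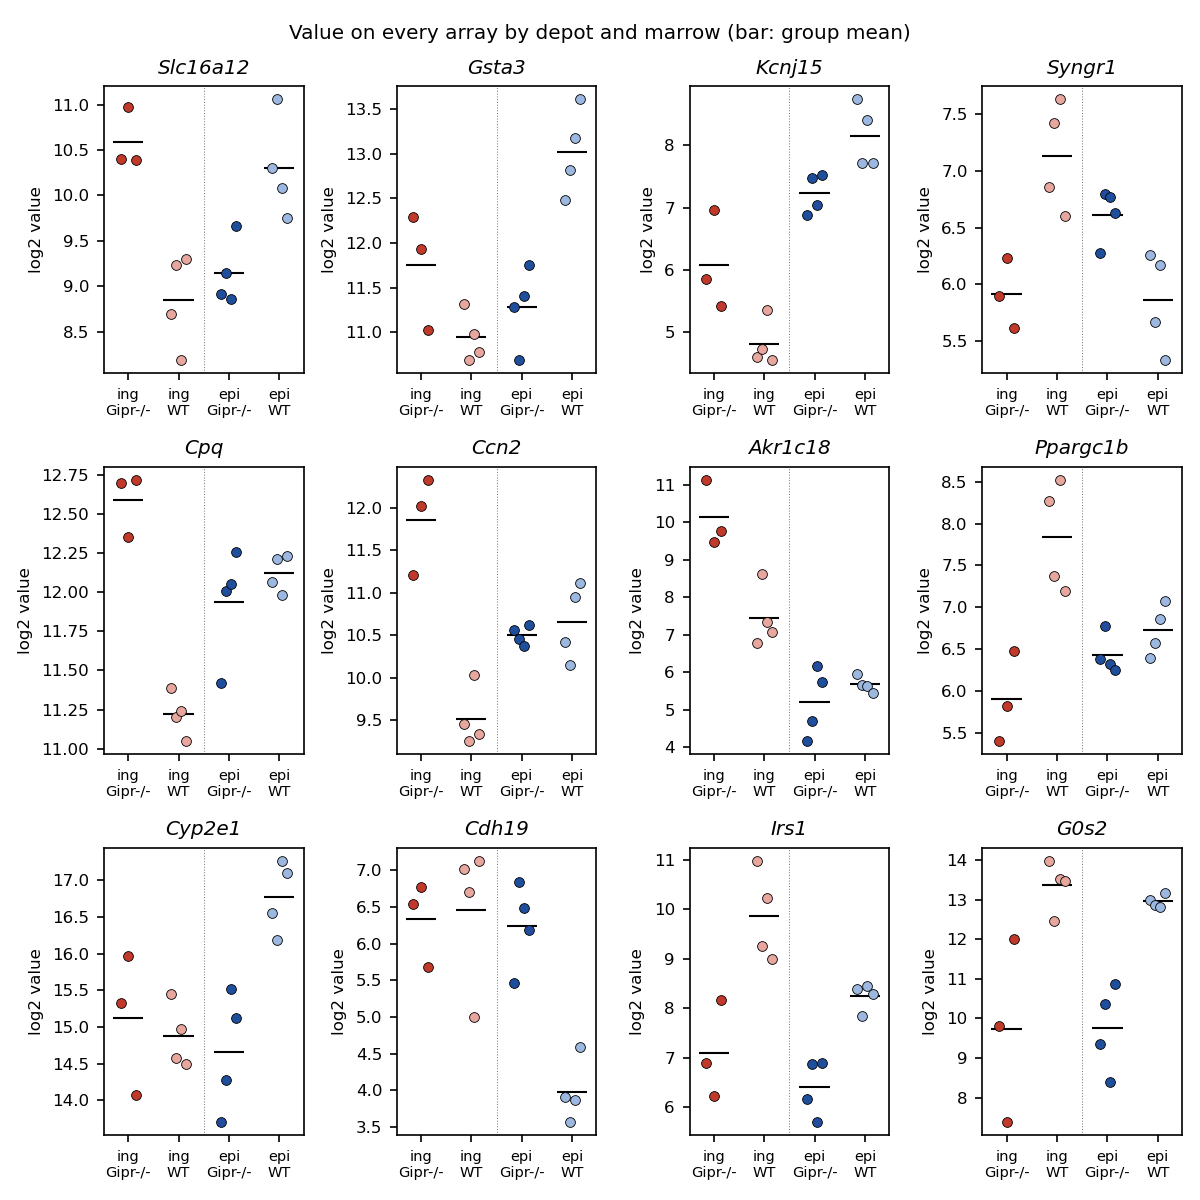
Values (log2, vertical axes) of 12 named genes on each of the 15 arrays, by depot and marrow; points are arrays and bars group means. Slc16a12 and Kcnj15 differ in opposite directions in the depots, Cpq, Ccn2, Akr1c18 and Ppargc1b differ in ingWAT, Cyp2e1 and Cdh19 in epiWAT, and Irs1 and G0s2 in both.

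Among the 52 ingWAT-only genes that were lower with Gipr-/- marrow, Ppargc1b encodes a coactivator of mitochondrial and lipid gene programs. It read 5.40, 5.82 and 6.48 in ingWAT with Gipr-/- marrow, against 8.26, 7.37, 8.52 and 7.19 with WT marrow. The epiWAT values were 6.38, 6.77, 6.32 and 6.25 with Gipr-/- marrow, against 6.39, 6.57, 6.86 and 7.08 with WT marrow. WT array 4, which had the lowest muscle score in ingWAT, still lay above all 3 Gipr-/- arrays. Ppargc1b fell by 1.94 in ingWAT (limma adjusted p = 0.0136) and differed by -0.29 in epiWAT. Its difference of differences was -1.64 (SE 0.426), its exact permutation p of 0.0824 was the highest of the 20, and the value was -1.23 with the muscle covariate. The ingWAT difference of Ppargc1b was -1.58 within each code run.

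Some members are known from muscle. Of the 17 genes of the skeletal muscle list 0 had ingWAT arrays without overlap, against 15.4% of all genes tested. On the muscle score ingWAT WT array 4 (-1.55) lay below every Gipr-/- array, and the other WT arrays lay above them. Mybpc2, the fast myosin-binding protein, differed by -4.37 in ingWAT and 0.14 in epiWAT, Tmod4, a tropomodulin of thin filaments, by -4.19 and -0.25, and Hrc, a calcium-binding protein of the sarcoplasmic reticulum, by -2.80 and -0.33. Xirp1, an actin-binding protein of striated muscle, fell by 1.59 in ingWAT (limma adjusted p = 0.0229) and differed by 0.09 in epiWAT. Members that encode mitochondrial proteins, picked after their values were seen, included Uqcrh (-1.01 in ingWAT), Atp5k (-1.11), Ndufb11 (-1.11) and Mrpl42 (-1.37). The ingWAT-only higher class held such genes too, among them Ndufa8 (1.09), Ndufaf1 (1.43), Timm23 (1.14) and Yme1l1 (1.34), so no theme is shown. The share of muscle RNA in the differences of the lower class was not tested. All 52 genes kept a negative difference of differences with the muscle covariate, with a median of -1.20 against -1.39 without it, and 25 kept an unadjusted p under 0.05. These genes too had been chosen on the same arrays for that sign and a small p, so this is a description. With that covariate 1075 of all 14502 genes tested had an unadjusted p under 0.05. Rai1, a chromatin-binding transcriptional regulator, fell by 1.22 in ingWAT (limma adjusted p = 0.0421) and differed by 0.15 in epiWAT. Olfr491 and Vmn2r102, chemosensory receptors, fell by 1.29 and 1.48 in ingWAT, at 6.09 or lower on all arrays. Zscan2, a zinc finger protein, and Kctd15, a BTB-domain protein, were outside the class: Zscan2 differed by -1.45 in ingWAT and 0.77 in epiWAT, and Kctd15 by -1.37 and 0.66.

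The 44 epiWAT-only genes were fewer, and no single gene passed in epiWAT. Cyp2e1, a cytochrome P450 that oxidizes ethanol, ketones and fatty acids, read 15.34, 15.97 and 14.07 in ingWAT with Gipr-/- marrow, against 15.45, 14.57, 14.98 and 14.50 with WT marrow. In epiWAT the arrays read 13.71, 14.28, 15.52 and 15.13 with Gipr-/- marrow, against 16.56, 16.19, 17.27 and 17.11 with WT marrow. The epiWAT groups were apart and the ingWAT groups overlapped. The difference was 0.25 in ingWAT and -2.12 in epiWAT (limma adjusted p = 0.119), with a difference of differences of 2.37 (SE 0.615; limma adjusted p = 0.34). Within the later and the earlier code run the ingWAT difference of Cyp2e1 was 1.15 and -0.93. Other lower members were Prr5, a subunit of an mTOR complex (-1.14 in epiWAT), Stc2, a secreted stanniocalcin (-1.13), and Boc, a hedgehog co-receptor (-1.10). Gpam, which catalyses the first step of triglyceride synthesis, and Mlxipl, the carbohydrate response factor ChREBP, differed by -1.15 and -1.30 in epiWAT, against 0.04 and -0.28 in ingWAT.

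Cdh19, a cadherin of Schwann cells, led the epiWAT-only genes that were higher with Gipr-/- marrow. It read 6.54, 6.78 and 5.68 in ingWAT with Gipr-/- marrow, against 7.02, 6.71, 4.99 and 7.12 with WT marrow. Its epiWAT arrays held 5.47, 6.83, 6.49 and 6.18 with Gipr-/- marrow, against 3.91, 3.57, 3.86 and 4.59 with WT marrow. The epiWAT WT arrays were the lowest of all 15. The difference was 2.26 in epiWAT (limma adjusted p = 0.117) and -0.13 in ingWAT, a difference of differences of -2.39 (SE 0.594; limma adjusted p = 0.34). Gpnmb, a membrane glycoprotein of lipid-laden macrophages, read 13.18, 13.78, 13.97 and 13.30 in epiWAT with Gipr-/- marrow, against 12.53, 9.73, 9.74 and 8.90 with WT marrow. Its difference was 3.33 in epiWAT and 0.20 in ingWAT, where 1 WT array reached 13.26. Timp1, an inhibitor of metalloproteinases, differed by 1.60 in epiWAT and -0.15 in ingWAT, Ptchd1, a patched-domain membrane protein, by 1.37 and -0.15, and Pde10a, a cyclic nucleotide phosphodiesterase, by 1.37 and -0.42. The germ cell scores of 2 epiWAT arrays stand beside these results. Without those arrays the difference of differences was 2.25 for Cyp2e1, -2.51 for Cdh19 and -3.09 for Gpnmb. That of Gpnmb was -2.06 without ingWAT WT arrays 2 and 3.

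The last class holds genes that differed in the same direction in both depots. Irs1, the adaptor of the insulin receptor, read 6.90, 6.22 and 8.17 in ingWAT with Gipr-/- marrow, against 10.98, 9.26, 10.23 and 9.00 with WT marrow. Epididymal values were 6.16, 6.88, 5.70 and 6.89 with Gipr-/- marrow, against 8.39, 7.84, 8.46 and 8.29 with WT marrow. Both depots were without overlap. Irs1 fell by 2.77 in ingWAT (limma adjusted p = 0.0136) and differed by -1.84 in epiWAT (limma adjusted p = 0.185), and the difference of differences was -0.93 (95% interval -2.28 to 0.41). For Irs1 it was -0.33 with the muscle covariate and -0.36 with the code run. G0s2, an inhibitor of adipose triglyceride lipase, fell by 3.63 in ingWAT (limma adjusted p = 0.0421) and differed by -3.21 in epiWAT (limma adjusted p = 0.179), with a difference of differences of -0.42 (95% interval -2.69 to 1.85). For G0s2 it was -0.14 with the muscle covariate, 0.21 with the code run and 0.75 without ingWAT Gipr-/- array 2. Thbs1, the matricellular thrombospondin, differed by 2.59 in ingWAT and 1.82 in epiWAT, Errfi1, a feedback inhibitor of the EGF receptor, by 1.90 and 1.87, and Tlr13, a receptor for bacterial ribosomal RNA, by 1.90 and 1.56. Rasd1, a Ras-like protein induced by glucocorticoids, differed by -2.74 and -2.38. The intervals of Irs1 and G0s2 include depot differences of 1 in size, so a similar change in both depots is not shown. With the muscle covariate the difference of differences was 0.39 against 0.76 without it for Thbs1, 0.63 against 0.03 for Errfi1, -0.30 against 0.33 for Tlr13 and -1.31 against -0.37 for Rasd1. None of Thbs1, Errfi1, Tlr13 and Rasd1 passed the limma threshold in either depot. Within the later and the earlier code run the ingWAT difference was -2.44 and -1.99 for Irs1 and -4.88 and -1.33 for G0s2. It was 4.06 and 0.33 for Errfi1, 2.95 and 1.64 for Thbs1, 1.08 and 2.24 for Tlr13 and -3.94 and -2.54 for Rasd1.

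**Figure D4:**
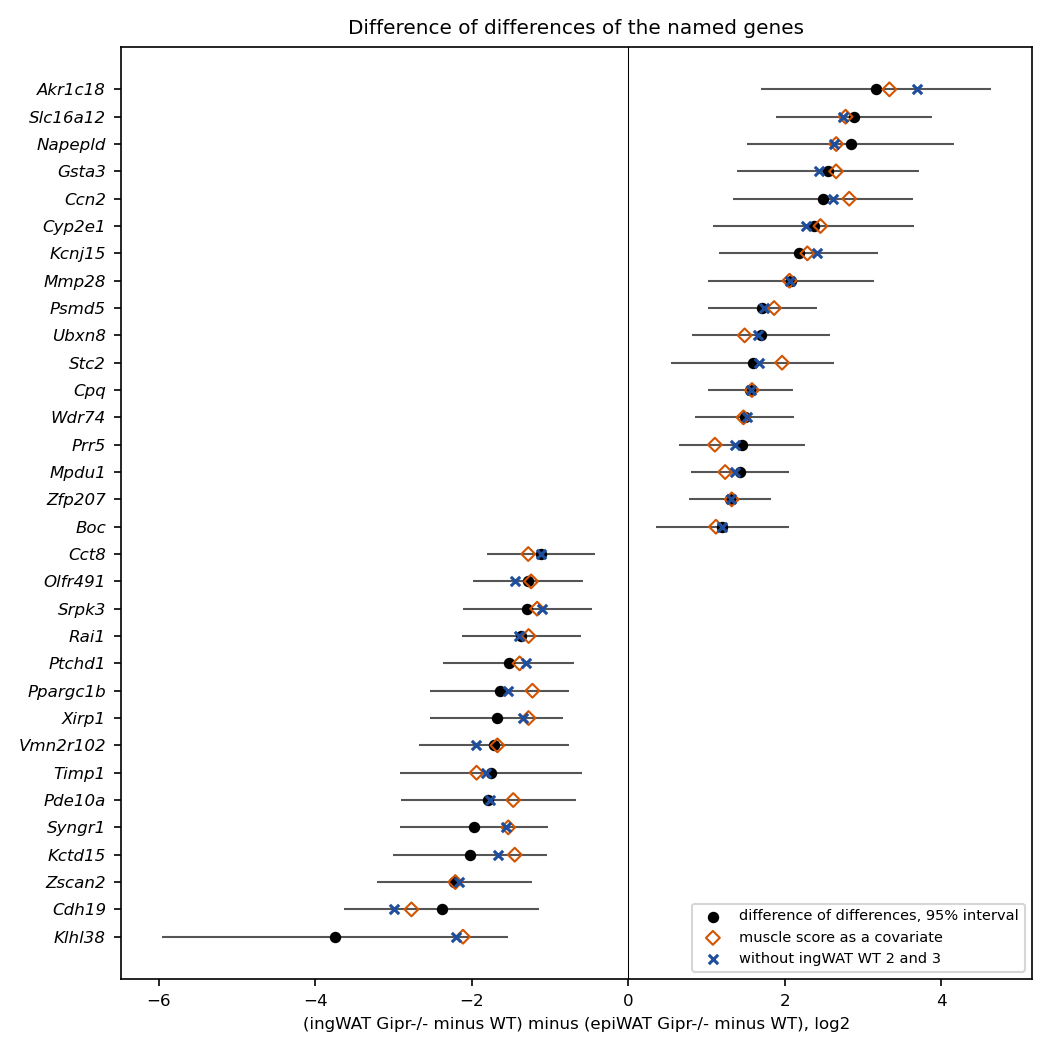
Difference of differences (horizontal axis, log2) of the genes named for a small interaction p or a one-depot or opposite class. Points and lines are estimates with 95% intervals, diamonds the estimates with the muscle score as a covariate, and crosses those without ingWAT WT arrays 2 and 3; Klhl38 has -3.75 without and -2.11 with the covariate, and Slc16a12 has 2.88 and 2.78.

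Across all genes tested the median difference of differences was 0.06 (medians 0.04 in ingWAT and -0.02 in epiWAT) and 54.8% of genes were above 0. Beside this, 15 of 16 lipogenesis genes were above 0, with a median of 0.85 made up of 0.03 in ingWAT and -0.69 in epiWAT. In epiWAT 13 of the 16 were lower with Gipr-/- marrow. The difference of differences was 1.99 for Pnpla3 (patatin-like lipid remodelling enzyme), 1.58 for Agpat2 (acylation of lysophosphatidic acid) and 1.36 for Lpin1 (phosphatidate phosphatase). Unadjusted p was under 0.05 for 5 of the 16, all above 0, against 5.16% of all genes tested in that direction. They were Pnpla3, Agpat2, Lpin1, Gpam and Mlxipl, and 0 passed after adjustment. Pnpla3 read 10.15, 11.61, 11.98 and 12.50 in epiWAT with Gipr-/- marrow, against 13.16, 12.50, 13.25 and 13.61 with WT marrow, so that the groups met at 12.50. The lipogenesis median was 1.12 with the muscle covariate. Of 19 genes of branched-chain amino acid breakdown 17 were above 0, with a median of 0.49 (-0.06 in ingWAT and -0.62 in epiWAT). Aldh6a1 and Acadsb, of the valine and the branched acyl-CoA steps, had 1.03 and 0.91. Markers of mature adipocytes lay the same way: 15 of 17 were above 0 with a median of 0.36 (-0.06 in ingWAT and -0.57 in epiWAT), and 14 of the 17 were lower in epiWAT with Gipr-/- marrow. The part of these markers in the other lists' values was not tested.

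All 13 endothelial genes had a positive difference of differences, with a median of 0.79 (0.54 in ingWAT and -0.30 in epiWAT). Sox17, a transcription factor of arterial endothelium, had the highest at 1.61, and Plvap, of the diaphragms of fenestrae, had 1.25. The endothelial score lay between 0.261 and 0.964 in ingWAT with Gipr-/- marrow, against -0.293 to 0.401 with WT marrow, and between -1.29 and 0.214 in epiWAT with Gipr-/- marrow, against -1.02 to 0.345 with WT marrow. Groups overlapped in both depots. Of 19 interferon response genes 15 were above 0 with a median of 0.56 (0.88 with the muscle covariate), and Ifit1, an inhibitor of foreign RNA translation, had 1.65. In epiWAT, where the median over all genes tested was -0.02, 17 of these 19 were lower with Gipr-/- marrow. The interferon score of epiWAT Gipr-/- array 1 was -1.34, against -0.109 to 0.104 in the other 3. Of 25 extracellular matrix genes 17 were above 0 with a median of 0.42. Ccn2 and Postn, a matricellular periostin, rose in ingWAT (Postn by 2.23, limma adjusted p = 0.0419), where Postn differed by 1.37 more than in epiWAT.

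The B cell and plasma cell genes had 9 of 11 below 0 and a median of -0.70, made up of -0.07 in ingWAT and 0.78 in epiWAT. With the muscle covariate the B cell median was -1.56 (-0.89 in ingWAT), and it was -0.19 with the lowest 50% of genes left out. Cd72, an inhibitory co-receptor of B cells, read 7.76, 8.42, 7.81 and 7.39 in epiWAT with Gipr-/- marrow, against 6.44, 5.99, 6.04 and 6.61 with WT marrow, without overlap. Its ingWAT difference was -0.67. Of 12 thermogenic and beige genes 10 were below 0 with a median of -0.57; this was -0.26 with the muscle covariate. Cox7a1 and Cox8b, isoforms of cytochrome oxidase subunits that muscle also carries, had -2.59 and -2.20, and -1.08 and -1.12 with the covariate. Ucp1, the uncoupling protein of thermogenic adipocytes, was under the filter on low values and was not tested.

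The lists of other tissues moved with the arrays named at the start. All 17 skeletal muscle genes were below 0, with a median of -4.85, and of -1.65 without ingWAT WT arrays 2 and 3. The muscle covariate is the score of this same list, so the list's median of -0.11 with it was largely built in and shows nothing. The skin and gland epithelium list had a median of -1.93 and 15 of 17 below 0, and its median was -0.41 with the muscle covariate. The testis germ cell median was -1.18, and 0.07 without epiWAT Gipr-/- array 1 and WT array 2. The medians of the epididymis (0.50, 5 of 8 above 0), Schwann cell (-0.62, 7 of 9 below 0) and lymph node stroma (0.55, 5 of 8 above 0) lists rest on 9 or fewer genes each. For lymph node stroma the depot medians were both below 0 (-0.27 in ingWAT and -0.03 in epiWAT), and its median difference of differences was -0.033 with the muscle covariate. General macrophage and lipid-associated macrophage genes had median differences of differences of -0.19 and -0.25. The lipid-associated list was higher with Gipr-/- marrow in both, with 15 of 17 genes above 0 in ingWAT (median 0.58) and 14 of 17 in epiWAT (median 1.08). The macrophage marker Adgre1 had differences of -0.15 and 0.78, and Trem2, the lipid receptor of these cells, of 0.70 and 1.79.

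**Figure D5:**
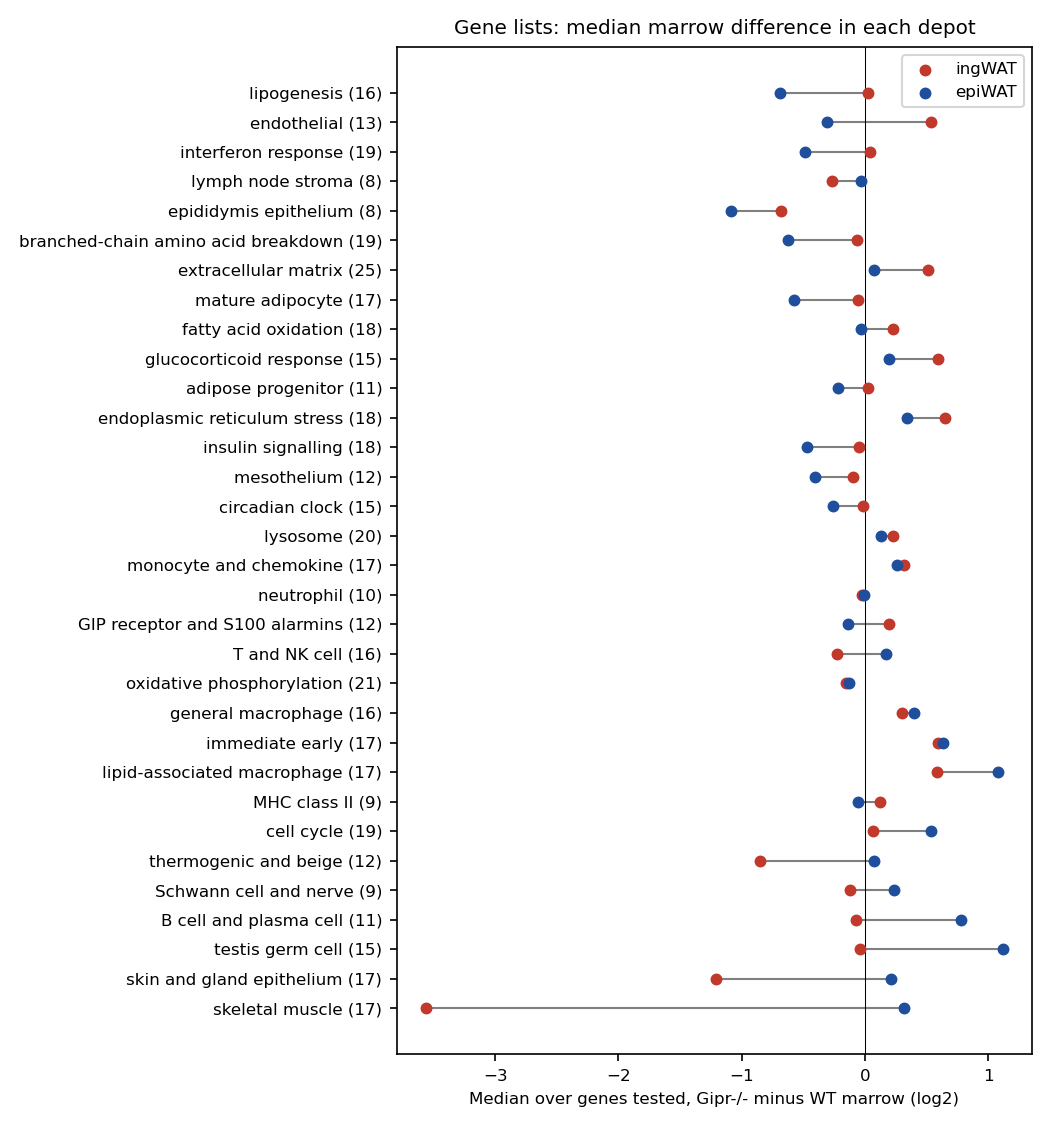
Median difference between Gipr-/- and WT marrow (horizontal axis, log2) over the tested genes of each of 32 lists, in ingWAT and in epiWAT; the number of genes is in brackets, and lists run down by their median difference of differences. Lipogenesis is near 0 in ingWAT (0.03) and low in epiWAT (-0.69), and skeletal muscle is low in ingWAT (-3.56).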

How the data were processed

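RNA of 22 fat samples was measured on 1-colour Affymetrix whole-transcript arrays from 100 ng of total RNA. The authors deposited a table of 21793 features on a log scale, read here as log2 values; the base, the background correction and the normalization are not given in the sources used here, and Partek 6.6 is among the tools per the submitters' processing notes. Array medians lay between 6.11 and 6.54. The platform annotation named 19341 features with 1 symbol each, and 2452 were unnamed. For the 4 genes with 2 features the brighter was kept, which left 19337 genes. Arrays of a group correlated with r of 0.907 to 0.984, with 0 identical pairs. Arrays carry no read depth; their number limits the precision.

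Groups were taken from the sample titles, and arrays were numbered within a group in accession order. All 22 arrays in 6 groups were fitted with limma 3.58.1 (a linear model per gene, moderated by an intensity-dependent variance prior) under R 4.3.3, without the 25% of genes lowest in mean. Contrasts were two-sided, with Benjamini-Hochberg adjustment over all genes tested and a threshold of 0.05. The fit was tested on simulated data. The exact permutation exchanged marrow labels within depots. Named genes were Gipr, S100a8 and S100a9; the 10 with the smallest interaction p in each direction; the 4 with the smallest p of each one-depot and opposite class; the 3 largest of each same-direction class; the 3 with the smallest p of each list with a median of at least 0.4 in size; and fixed markers. Genes named outside this rule are described as members of their class or list. The members, lists and tests were chosen with earlier results of these data known. Alternatives varied the arrays fitted, the filter, the features, the variance prior, array weights, the scaling and covariates, and left out arrays.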

Additional observations from a re-analysis of the deposited data

Results flagged for a closer look

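In groups of 4 arrays, a value was singled out where its gap to the nearest other array was large for the whole range of the group by Dixon's criterion. Chance alone does so for about 1 group in 20, and 13 of 255 gene groups and 5 of 96 list groups met it, which is about that rate. Explanations were not tested. Among genes named for the difference of differences, Mpdu1 was lowest in epiWAT Gipr-/- array 1 at 12.65, against 13.25 to 13.33 in the other 3. Rai1 was lowest in epiWAT Gipr-/- array 2 at 9.553 (others 9.964 to 10.02) and in epiWAT WT array 1 at 8.93 (others 9.897 to 10.07). Srpk3 was highest in epiWAT Gipr-/- array 4 at 5.08 (others 4.538 to 4.619) and lowest in epiWAT WT array 2 at 3.368 (others 4.292 to 4.437).

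Of genes named from lists, Aldh6a1 was highest in ingWAT WT array 1 at 14.45 (others 13.55 to 13.69). Lyve1, a receptor of lymphatic endothelium and some macrophages, was lowest in ingWAT WT array 3 at 8.226 (others 9.511 to 9.603). Plvap was highest in epiWAT Gipr-/- array 4 at 9.498 (others 7.707 to 7.972). Genes of other tissues stood out on single arrays. Hspa1l, of germ cells, reached 8.157 in epiWAT Gipr-/- array 1 (others 4.119 to 4.396), and the keratin Krt15 reached 5.607 there (others 4.46 to 4.627). The epididymal genes Adam7 and Gpx5 reached 17.54 in epiWAT WT array 2 (others 9.502 to 10.84) and 9.614 in epiWAT WT array 1 (others 3.4 to 4.301). The epithelial claudin Cldn4 reached 8.101 in ingWAT WT array 2 (others 4.535 to 4.695).

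For lists, the interferon response score was lowest in epiWAT Gipr-/- array 1 at -1.34 (others -0.109 to 0.104). The lipid-associated macrophage score was highest in epiWAT WT array 1 at 1.01 (others -0.409 to -0.172). In epiWAT WT array 2 the fatty acid oxidation score was lowest at -0.75 (others 0.00896 to 0.161), the Schwann cell score highest at 0.309 (others -0.683 to -0.583) and the immediate early score lowest at -0.561 (others -0.249 to -0.222).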

How the results depend on the processing

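No paired analysis was possible because the labels and columns carry no replicate numbers shared between groups. Genes past the limma threshold in ingWAT numbered 97; alternatives gave 153 (15 arrays only), 34 (each depot apart), 56 (no filter), 694 (array weights), 27 (median-centred), 52 (quantile), 207 (epididymis covariate), 2 (muscle covariate), 12 (both covariates), 1 (code run) and 1 (without ingWAT WT arrays 2 and 3). The difference of differences had 0, against 2 with 50% of genes left out and 28 with array weights, which also gave 1875 at an unadjusted p under 0.05. EpiWAT had 0, against 7 (all features), 93 (array weights), 82 (epididymis covariate), 93 (both covariates) and 1 (without ingWAT WT arrays 2 and 3). Direction classes came to 28 epiWAT-only and 8 opposite genes (50% left out), 9 opposite (quantile), 28 opposite and 193 same (without epiWAT Gipr-/- array 1 and WT array 2), 25 epiWAT-only, 32 opposite and 120 same (without ingWAT WT arrays 2 and 3), and 420 ingWAT-only and 25 opposite (smaller sizes). The covariates, the code run and the arrays left out together were chosen after seeing the data, except the single muscle and epididymis scores.

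List medians moved to 0.77 (neutrophil), -0.19 (B cell) and 0.97 (lymph node) with 50% left out. The muscle covariate gave 0.13 (oxidative phosphorylation), -0.41 (neutrophil), -1.56 (B cell), -0.77 (T and NK), -0.033 (lymph node), -0.94 (MHC class II), -0.11 (muscle) and -0.41 (skin). Both covariates gave 1.13 (lipogenesis), 0.13 (oxidative phosphorylation), -0.41 (neutrophil), -1.57 (B cell), -0.77 (T and NK), -0.040 (lymph node), -0.93 (MHC class II), 0.71 (glucocorticoid), -0.12 (muscle) and -0.45 (skin). In these settings the muscle value was largely built in, because the muscle covariate is the score of the same list. Without the 2 epiWAT arrays Schwann cell had -1.21 and endoplasmic reticulum stress 0.14. Without the 2 ingWAT WT arrays lysosome had 0.29, neutrophil -0.37, B cell -1.15, glucocorticoid 0.71 and muscle -1.65, and the code run gave -2.10 for muscle and -0.40 for skin. The causes were not tested.

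The sign of a gene's difference of differences turned for Errfi1 (-0.18) and Lep (-0.11) with quantile normalization, Tlr13 (-0.30) and Lep (-0.22) with the muscle covariate, Tlr13 (-0.29) and Lep (-0.20) with both, G0s2 (0.21) and Lep (-0.054) with the code run, and Dazl (0.15) without the 2 epiWAT arrays. Leaving out 1 array at a time gave ranges that cross 0 for Lep (-0.039 to 0.33), Tlr13 (-0.18 to 0.74), Rasd1 (-1.12 to 0.069), G0s2 (-1.55 to 0.75), Gpx5 (-1.01 to 1.06), Dazl (-2.02 to 0.020), Odf2 (-2.13 to 0.015) and Errfi1 (-0.52 to 0.54). 

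Leaving out 1 array gave 0 to 2 genes past the threshold for the difference of differences, 889 to 1335 at an unadjusted p under 0.05, 1 to 252 in ingWAT and 0 to 1 in epiWAT. Classes held 185 to 397 ingWAT-only, 25 to 85 epiWAT-only, 12 to 34 opposite and 69 to 157 same-direction genes. List medians ran as B cell and plasma cell -1.04 to -0.53, GIP receptor and S100 alarmins -0.24 to 0.085, MHC class II -0.44 to 0.034, Schwann cell and nerve -0.94 to -0.37, T and NK cell -0.44 to 0.060, adipose progenitor 0.10 to 0.58, branched-chain amino acid breakdown 0.29 to 0.69, cell cycle -0.52 to -0.17, circadian clock 0.013 to 0.31, endoplasmic reticulum stress 0.22 to 0.40, endothelial 0.45 to 1.10, epididymis epithelium -0.20 to 1.22, extracellular matrix 0.22 to 0.64, fatty acid oxidation 0.087 to 0.54, general macrophage -0.36 to 0.15, glucocorticoid response 0.069 to 0.60, immediate early -0.46 to 0.14, insulin signalling 0.12 to 0.36, interferon response 0.24 to 0.82, lipid-associated macrophage -0.47 to 0.10, lipogenesis 0.52 to 1.02, lymph node stroma 0.41 to 0.72, lysosome -0.12 to 0.19, mature adipocyte 0.073 to 0.53, mesothelium 0.095 to 0.61, monocyte and chemokine -0.43 to 0.12, neutrophil -0.24 to 0.066, oxidative phosphorylation -0.27 to 0.00081, skeletal muscle -6.86 to -3.20, skin and gland epithelium -2.73 to -0.84, testis germ cell -1.94 to 0.74, thermogenic and beige -1.07 to -0.28. The median SE of 0.475, from 3 or 4 arrays a group, limits the precision of every depot difference. Of single-gene values under alternatives, 2503 kept their sign and side of the threshold, 23 turned and 20 passed the adjusted threshold newly. Ppargc1b was the 1 gene of the 20 with an exact permutation p above 0.05 (0.0824).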

Other observations

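Endoplasmic reticulum stress genes were higher with Gipr-/- marrow in both depots, with medians of 0.65 in ingWAT and 0.34 in epiWAT over 18 genes (0.31 for the difference of differences). Hspa5, the lumenal chaperone BiP, rose by 1.52 in ingWAT (limma adjusted p = 0.033) and differed by 0.71 in epiWAT. Creld2 and Xbp1 had differences of differences of 1.12 and 0.75, while Atf4, the translation-controlled stress factor, had -0.90. Of 15 glucocorticoid response genes 13 were above 0, with a median of 0.35. Mt2, a metallothionein, rose in ingWAT (difference 2.00, limma adjusted p = 0.0468) and differed by 0.65 in epiWAT.

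Insulin signalling genes had a median of 0.28 (-0.04 in ingWAT and -0.47 in epiWAT), with 13 above 0 and 5 below. Pdpk1 and Mtor, kinases of this route, had differences of differences of 1.22 and 0.84, and Irs1 had the lowest at -0.93. Of 19 cell cycle genes 16 were below 0, with a median of -0.32 (0.07 in ingWAT and 0.54 in epiWAT), led by the kinetochore motor Cenpe at -1.69. Among 12 genes of the GIP receptor and S100 family list, 7 were below 0 and the median was -0.11. None of 1722 unnamed features passed the threshold for the difference of differences by limma (lowest adjusted p 0.381). In epiWAT alone 7 features passed with the unnamed ones included, against 0 without them.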
